A study of Mus musculus with 4 samples.

Results

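The SWI/SNF or BAF complex is an ATP-dependent machine that slides and ejects nucleosomes, and 10 genes for its subunits are described here in sorted mouse splenic B cells. The members were the rows of the count tables named Smarca2, Smarca4, Smarcb1, Smarcc1, Smarcc2, Smarcd1, Smarcd2, Arid1a, Arid1b and Arid2, and each name matched 1 row, so that 10 of 37646 listed genes were taken. RNA came from B220+ YFP+ cells of C57BL/6 control mice of the genotype YFPstopF/+Cg1Cre/+, in which Cre expressed from the Ighg1 (Cg1) locus switches on a YFP reporter. They were immunised with sheep erythrocytes, boosted after 20 days, and killed 10 days after the boost. All 4 libraries belonged to this 1 group, so there is no treated or mutant group to compare and the results are levels, ratios between paralogues inside a library, and the spread between libraries. The age of the mice was not given in the sources used here. Cre activity marks a cell for good. YFP+ cells may therefore include memory B cells and plasma cells as well as the germinal centre B cells that the labels name. The 6 plasma cell genes listed summed to 954 to 1932 TPM, most of it from Jchain (mean 1251 TPM). Among the others, Sdc1 (13.5), Prdm1 (10.3) and Tnfrsf17 (5.08) were much lower, with Xbp1 at 201 and Irf4 at 143.

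A BAF complex is built around 1 ATPase, either SMARCA4 (BRG1) or its paralogue SMARCA2 (BRM). Alternative subunits define the forms of the complex: ARID1A or ARID1B in canonical BAF, ARID2 in PBAF, and BRD9 in the non-canonical form (ncBAF). In canonical BAF and PBAF, core subunits SMARCB1, SMARCC1, SMARCC2 and the SMARCD proteins hold the complex together. In B cells SMARCA4 is needed for early development, and ARID1A and SMARCA4 are among the chromatin genes mutated in B cell lymphomas.

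The libraries held 13777954 to 14629025 counts, and the members had between 677 and 11440 counts each in a library, so counting error on a member was small, at most 0.05 on the log2 scale. Levels are TPM (counts divided by the gene's summed exon length and scaled to a fixed total per library), as mean ± SD over n = 4, unless said otherwise. The labels name no animal per library, so p-values measure the spread between these libraries, and that among libraries 1, 2 and 4 may be technical. Y-linked Ddx3y had 1307 counts in library 3 and 0 to 3 elsewhere, while Xist had 6 counts there and 8689 or more elsewhere, so library 3 came from another, male, source, and sex and any other feature of library 3 cannot be told apart. Summed TPM of 8 B lineage markers lay between 4318 and 5783 and that of 8 germinal centre markers between 938 and 1553, and all 16 genes exceeded 1 TPM in every library. T cell markers (9 of 9 above 1 TPM in every library) summed to 463, 204, 177 and 388 TPM in libraries 1 to 4. In bulk RNA, fewer cells of a type and less RNA per cell cannot be told apart.

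Promoter sequences are shown because members of widely different level had alike CpG-rich starts. RefSeq windows on GRCm38.p6, from 250 bases before to 50 bases after a transcript start, were matched by symbol for 9 of the 10 members, with 2 windows for Arid1a (Arid2 was not matched). The printed stretches are the parts of the window that lie before both the RefSeq start and the start of the gene in GENCODE, read 5′ to 3′ along the gene's strand. Smarca4 and Smarca2 are printed as the paralogues furthest apart in level, Smarcb1 as the core subunit without a paralogue, and Arid1a as the highest ARID gene. They lie at chr9:21615919-21616168 (plus strand), chr19:26604910-26605049 (plus), chr10:75921618-75921864 (minus) and chr4:133756770-133757019 (minus), in that order. Capitals mark GGGCGG, the GC box, on either strand.
Smarca4: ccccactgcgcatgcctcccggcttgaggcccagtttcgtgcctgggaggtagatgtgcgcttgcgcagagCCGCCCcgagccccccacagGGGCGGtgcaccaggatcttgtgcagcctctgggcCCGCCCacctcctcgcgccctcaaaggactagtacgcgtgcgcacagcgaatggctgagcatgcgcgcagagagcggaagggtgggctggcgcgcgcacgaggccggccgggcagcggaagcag
Smarca2: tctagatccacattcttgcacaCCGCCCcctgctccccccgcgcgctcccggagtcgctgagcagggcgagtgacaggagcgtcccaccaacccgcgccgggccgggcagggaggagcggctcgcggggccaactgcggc
Smarcb1: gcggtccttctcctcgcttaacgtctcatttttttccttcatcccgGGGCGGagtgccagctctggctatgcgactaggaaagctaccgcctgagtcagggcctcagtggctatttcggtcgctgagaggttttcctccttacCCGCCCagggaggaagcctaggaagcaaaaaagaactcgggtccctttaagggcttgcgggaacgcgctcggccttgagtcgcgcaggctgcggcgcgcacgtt
Arid1a: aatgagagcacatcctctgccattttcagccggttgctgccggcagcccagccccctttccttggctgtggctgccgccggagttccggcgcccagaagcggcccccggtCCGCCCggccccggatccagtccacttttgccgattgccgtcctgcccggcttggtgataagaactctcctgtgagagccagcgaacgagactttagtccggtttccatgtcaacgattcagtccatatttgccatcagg

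A GC box was present in all 10 windows, whereas 35.7% of 32851 RefSeq promoter windows hold one. Counted over the whole window, Smarca4 held 3 GC boxes, Smarca2 2, Smarcb1 3 and the second Arid1a window 7, matches that share bases being counted separately. At least 20 CpG dinucleotides were present in 9 of 10 windows, against 26.5% of all windows, where the median was 7. The exception was Smarcd2 with 4 CpG and the only TATAAA among the members (13.6% of all windows), but its RefSeq start lies 5340 bases inside the GENCODE gene. CCGGAAG, an ETS-type motif, occurred in the windows of Smarca2 and Smarcc1 (8.86% of all windows), and AAGATGG in that of Smarcd1 (6.34%). The NRF1 motif, GCGCA directly followed by TGCGC, was in none of them (0.97%). Both strands were searched in the full window, a match is a description and not a binding site, and the RefSeq starts of Smarcc1, Arid1b and the second Arid1a window also lie 14316, 742 and 2784 bases inside the GENCODE genes.

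Smarca4, the main ATPase gene, was the highest of the 10 members (chromosome 9, 21616169 to 21704230, mm10). Its levels were 215, 192, 300 and 221 TPM in libraries 1 to 4 (mean 232 ± 46.9). Of the 11982 genes that passed the filter on low counts, those with an annotated length were ranked, and its mean lay above 97.4% of them. Library 3 was the high one, and the other 3 libraries lay within 29.2 TPM of each other. Smarca2, which encodes the alternative ATPase, was the lowest member (chromosome 19, 26605050 to 26778322). It stood at 10.1, 10.2, 10.1 and 11.1 TPM (10.4 ± 0.47), library 4 being slightly higher than the other 3. In normalised CPM, explained below, library 2 was highest (73.6) and library 3 lowest (56.5). The ranges of the 2 ATPase genes did not overlap. Smarca4 exceeded Smarca2 21.3-, 18.7-, 29.8- and 20.0-fold in the 4 libraries, a mean log2 ratio of 4.46 ± 0.30, where counting error alone gives 0.05.

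The size of this ratio depended on gene length. Smarca2 has 46 annotated transcripts, whose exons join to 14269 bases, while its principal transcript has 5921. With principal transcript lengths the ratio was 9.34-fold, with coding lengths 9.92-fold and without gene length 10.0-fold. Smarca4 therefore supplied 95.6% ± 0.80 of the ATPase TPM by joined exons and 90.2% ± 1.70 by principal transcripts. Its share was largest in library 3, and a change of gene length cannot alter that order of libraries. The plot of TPM by library places Smarca4 at one end and Smarca2 at the other.

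**Figure D1:**
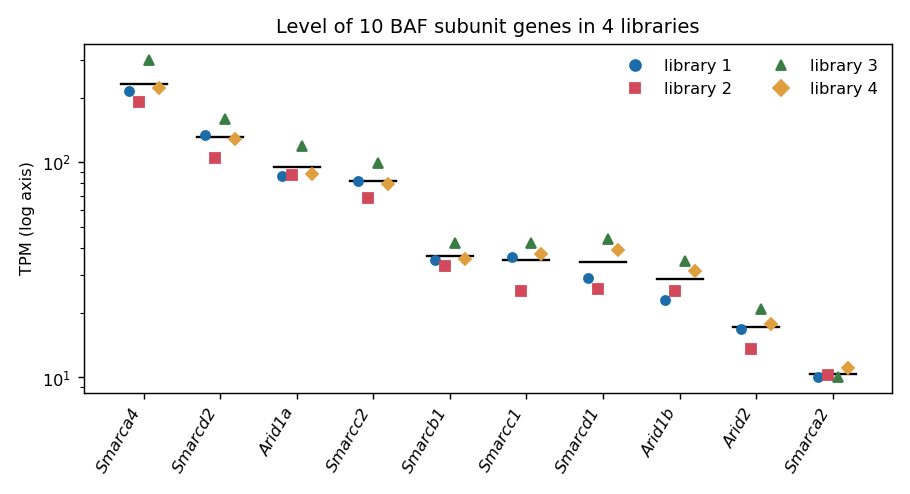
Level of each of the 10 members in each library, as TPM on a log axis, with 1 symbol per library and a bar at the mean, in order of the mean. Smarca4 lies highest (192 to 300 TPM) and Smarca2 lowest (10.1 to 11.1 TPM). In TPM, library 3 carries the highest value of every member apart from Smarca2, a count that depends on scaling. The share of all genes highest there in TPM was not counted. In CPM library 3 was highest for 9 of 10 members (33.1% of all genes tested). With TMM-normalised CPM it was highest for 8 of 10 members (27.8% of all genes tested). With mitochondrial and immunoglobulin counts left out of the total it was highest for 3 of 10 (21.3%).

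Smarcb1, the core subunit that contacts the nucleosome face (chromosome 10, 75896769 to 75921617), was the least variable member in normalised CPM, whereas in TPM that was Smarca2. Its levels were 35.3, 33.1, 42.3 and 35.6 TPM (36.6 ± 3.96), and after normalisation its highest library exceeded its lowest 1.08-fold. Its exons join to 7930 bases, whereas its principal transcript has 1660, and by that length it stood at 150 ± 13.3 TPM and by coding length at 129 ± 8.83. Its rank among the members was thus 5 of 10 by joined exons, 2 by principal transcripts, 3 by coding length and 7 by longest transcripts.

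The scaffold genes Smarcc1 (BAF155) and Smarcc2 (BAF170) encode proteins that pair at the base of the complex. Smarcc2 (chromosome 10, 128459248 to 128490482) was the higher of the pair, at 82.0, 68.1, 98.8 and 79.5 TPM (82.1 ± 12.7). Smarcc1 (chromosome 9, 110117708 to 110240178) stood at 36.1, 25.2, 42.2 and 37.5 TPM (35.2 ± 7.21). The ranges did not overlap, and library 2 was the low one for each gene, more so for Smarcc1. Smarcc2 exceeded Smarcc1 2.35-fold, a log2 ratio of Smarcc1 to Smarcc2 of -1.23 ± 0.15, in 4 of 4 libraries. By coding length the difference shrank to 1.52-fold and without gene length to 1.67-fold.

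Smarcd genes encode a further scaffold layer that links the ATPase module and transcription factors, and Smarcd2 is known for its part in granulocyte development. Smarcd2 (chromosome 11, 106263179 to 106272972) was the second highest member, at 134, 105, 159 and 128 TPM (132 ± 22.2). Smarcd1 (chromosome 15, 99702129 to 99713991) stood at 29.0, 25.7, 43.8 and 39.2 TPM (34.4 ± 8.50). Smarcd3, the remaining paralogue, best known from heart muscle, was near 0, with 9, 13, 13 and 12 counts. Smarcd2 exceeded Smarcd1 3.87-fold in the mean, 4.61-, 4.09-, 3.63- and 3.27-fold by library, so every library had Smarcd2 higher and the margin was widest in library 1. In shares of the family, Smarcd2 made up 79.2% ± 2.43, Smarcd1 20.6% ± 2.42 and Smarcd3 0.224% ± 0.053. Antisense genes share 12.7% of the Smarcd1 exon bases and 48.2% of those of Smarcd3, and the use of strand in counting was not given in the sources used here, so both levels are less certain than that of Smarcd2, whose exons overlap no other gene. Summed myeloid markers, looked at because of the known role of Smarcd2, were 263, 126, 177 and 281 TPM in libraries 1 to 4, with Smarcd2 highest in library 3; their part in the Smarcd2 level was not tested.

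The ARID genes encode the subunits that separate canonical BAF from PBAF. Arid1a (chromosome 4, 133679008 to 133756769) was the highest, at 86.5, 87.1, 119 and 88.1 TPM (95.1 ± 15.8). In TPM libraries 1, 2 and 4 were nearly level and library 3 lay above them. In normalised CPM, explained below, library 2 (504) lay nearer to library 3 (537) than libraries 1 and 4 did (453 and 439). Arid1b (chromosome 17, 4994332 to 5347656), its alternative in canonical BAF, stood at 23.0, 25.3, 34.9 and 31.3 TPM (28.6 ± 5.47). Arid2 (chromosome 15, 96287518 to 96404992), which marks PBAF, stood at 16.8, 13.5, 20.8 and 17.7 TPM (17.2 ± 2.98). Arid1a did not overlap with either. The lowest Arid1b library lay above the highest Arid2 library.

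Within libraries Arid1a exceeded Arid1b 3.34-fold (log2 1.74 ± 0.18) and Arid2 5.54-fold (2.47 ± 0.17), and Arid1b exceeded Arid2 1.66-fold (0.73 ± 0.19), each in 4 of 4 libraries. Of the TPM of these 3 genes, Arid1a gave 67.5% ± 2.20, Arid1b 20.3% ± 1.90 and Arid2 12.2% ± 1.13. With principal transcripts the shares were 71.4%, 17.0% and 11.6%, so the order held and the shares moved little.

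**Figure D2:**
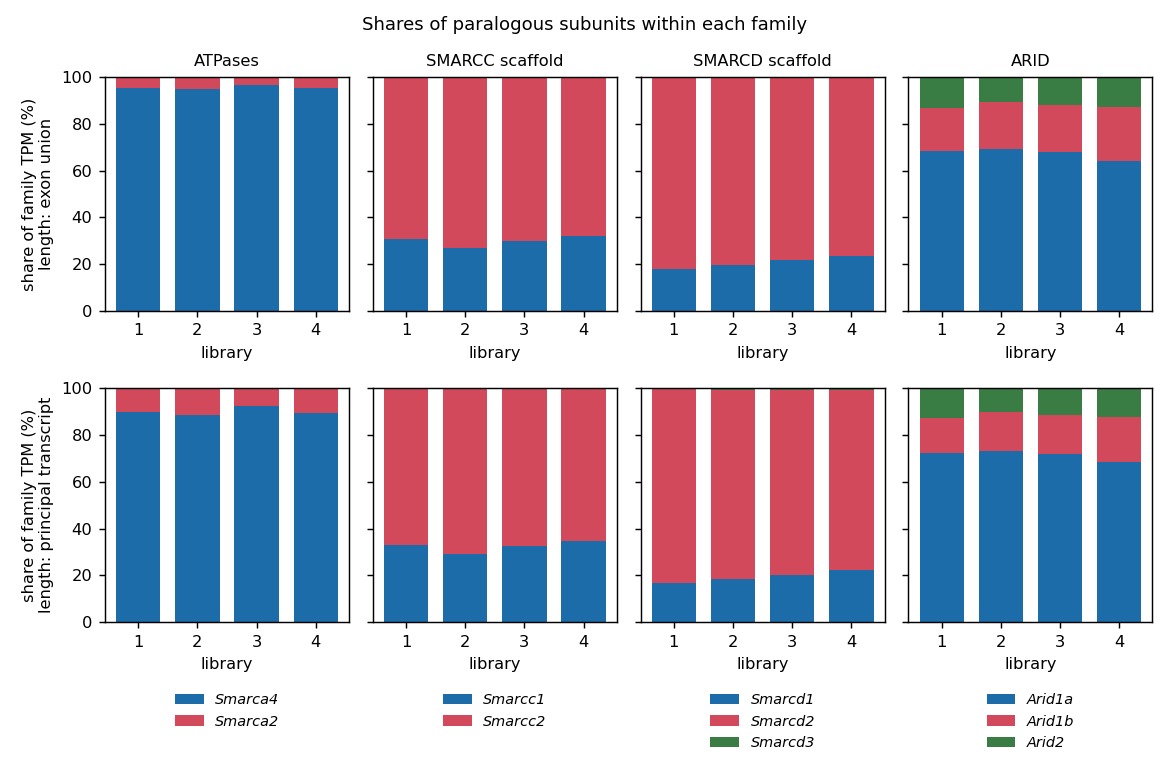
Share of each paralogue in the summed TPM of its family, by library, with gene length taken as joined exons (upper row) or as the principal transcript (lower row). Smarca4, Smarcc2, Smarcd2 and Arid1a hold the largest share of their family in all 4 libraries on each scale.

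The 6 paralogue differences were tested by flipping their signs over libraries, a two-sided exact permutation test. For each pair 2 of the 16 sign assignments were as extreme as the data, the smallest exact p that 4 libraries allow, and Benjamini-Hochberg adjustment over the 6 pairs leaves it unchanged, so the design cannot reach 0.05. With joined exons the mean differences were at least 3.76 times the SD between libraries. The smallest, Arid1b over Arid2, fell to 0.55 ± 0.19 on the log2 scale with principal transcripts. All 6 kept their direction in each library, with every gene length tried and without gene length. A pseudocount on both genes or leaving out a library could not change a direction that 4 of 4 libraries shared.

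**Figure D3:**
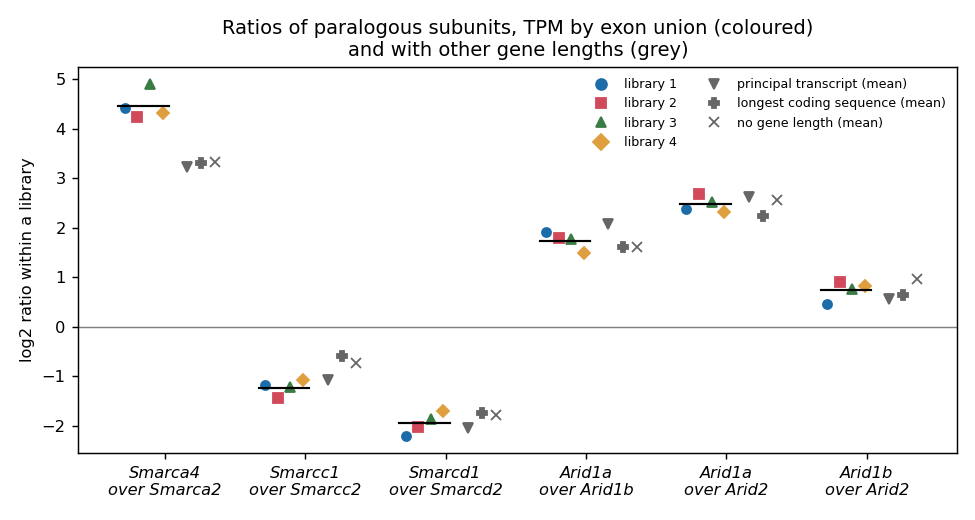
Log2 ratio of paralogous subunits within each library (coloured symbols, black bar at the mean, TPM by joined exons) and the mean ratio with other gene lengths (grey symbols). No ratio crosses 0, and the ratio of Smarca4 to Smarca2 moves most with gene length, from 4.46 to 3.22.

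In order of mean TPM the members ran Smarca4, Smarcd2, Arid1a, Smarcc2, Smarcb1, Smarcc1, Smarcd1, Arid1b, Arid2 and Smarca2. Neighbours in this order differed in the same direction in 4 of 4 libraries and by more than the SD of their difference, with 2 exceptions. Smarcb1 and Smarcc1 differed by 0.07 ± 0.22 on the log2 scale (2 of 4 libraries), and Smarcc1 and Smarcd1 by 0.04 ± 0.18 (3 of 4 libraries). Arid2 lay above Smarca2 by 0.72 ± 0.26, but with principal transcripts Smarca2 (21.4 ± 1.18) was above Arid2 (18.6 ± 2.88). The median over the 10 members was 35.9 TPM, beside 13.4 TPM over all genes tested that had an annotated length.

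Whether a gene varied more than the trend for its level was tested with edgeR's quasi-likelihood fit on 11982 genes. None of the 10 members passed (Benjamini-Hochberg adjusted p of 0.990 to 0.996), where 0.00835% of all genes did, and none had an unadjusted p under 0.05, where 4.97% of all genes did. None was called by the robust form of the fit (0.526% of all genes) or marked as a dispersion outlier by DESeq2 (1.33%). Among the members Smarcd1 lay furthest above the trend, at 1.52 times (unadjusted p = 0.318), and Smarcb1 furthest below it, at 0.0968 times; the test looks for an excess only. Between the highest and the lowest library the members differed 1.08-fold (Smarcb1) to 1.33-fold (Smarcd1) in normalised CPM (counts relative to the library total after TMM scaling), with a median of 1.23-fold against 1.42-fold over all genes tested. The SD between libraries nevertheless exceeded counting error for every member, from 1.54 times for Smarcb1 to 9.50 times for Smarca4. This multiple depends on the number of counts, and Smarca4 had the most of the members. Its SD of 0.14 on the log2 scale lay below that of Smarcd1 (0.22) and the median of all genes tested (0.23).

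Among the 10 members, the small differences that remained ran mostly in a shared direction in library 3. Smarca4 stood at 636, 626, 764 and 621 normalised CPM, and Arid1a at 453, 504, 537 and 439. Library 3 had the highest value of 8 of 10 members and lay above the mean of the 4 libraries for 9 of 10, whereas it was highest for 27.8% and above the mean for 51.1% of all genes tested. The median departure of the members in library 3 was 0.11 on the log2 scale. Of 17 further BAF, PBAF and ncBAF genes tested, library 3 was highest for 5 and above the mean for 7, with a median departure of -0.02. Of 14 catalytic subunits of other remodellers tested, it was highest for 4 and above the mean for 10. Among the members Smarca2 was the exception: at 65.8, 73.6, 56.5 and 68.5 normalised CPM it was lowest in library 3. Library 2 was lowest for 5 of 10 members (26.7% of all genes tested), among them Smarcc1 at 129, 99.4, 130 and 127 normalised CPM. Library 1 was lowest for 1 member (28.4% of all genes tested), Arid1b, at 132, 161, 173 and 171.

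These departures were not called by the test and depended in part on scaling. With median-of-ratios size factors library 3 was again highest for 8 of 10 members (27.4% of all genes tested). When mitochondrial and immunoglobulin counts were left out of the total it was above the mean for 8 of 10 (43.8% of all genes tested) and highest for 3 of 10 (21.3%), so the count of highest values was no longer far from that of all genes. Library 3 had the smallest share of such counts (20.5%, 24.1 to 28.8% in the others). It had the highest sum of 7 cycling markers (1366 TPM, 653 to 960 in the others). Its sum of plasma cell markers was the lowest (954 TPM, 1789 to 1932 in the others). Irf4, on the plasma cell list, was not lowest there, at 163 TPM against 90.8 in library 1. Sums of T cell markers and of immediate early and heat shock genes (1537 TPM, 2520 to 4683 in the others) were also lowest in library 3. Library 2 had the largest share of mitochondrial and immunoglobulin counts (28.8%) and the highest sum of immediate early and heat shock genes (4683 TPM). Jun, Fos, Junb and Egr1 were highest in library 2. The heat shock genes Hspa1a and Hspa1b were highest in library 1 (42.1 and 62.1 TPM, against 21.5 and 30.4 in library 2). Library 2 also had the lowest sums of cycling markers (653 TPM) and germinal centre markers (938 TPM). The part of these features in the departures was not tested.

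**Figure D4:**
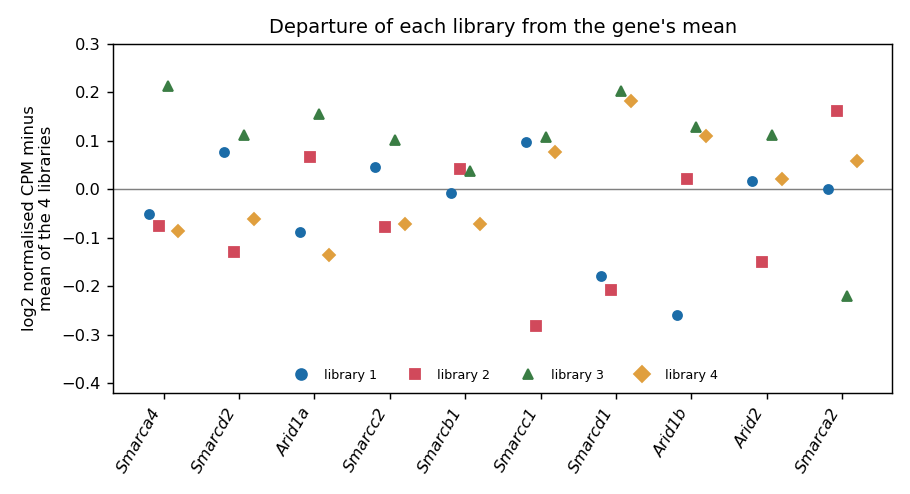
Departure of each library from the gene's mean over the 4 libraries, in log2 normalised CPM, for each member in order of mean TPM. Library 3 lies above 0 for 9 of the 10 members and below 0 for Smarca2, and all departures lie between -0.28 and 0.21.

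The other subunit genes of BAF, PBAF and ncBAF were taken from a list of 21. Of these, 17 exceeded 1 TPM in all 4 libraries and 17 entered the edgeR test of variation. None passed, where 0.00835% of all genes did. An unadjusted p under 0.05 was found for 1 of 17, near the share of all genes (4.97%). The list median was 20.4 TPM (29.3 by longest and 35.98 by principal transcripts), with 4 genes best known from muscle or neuronal complexes near 0. Actl6b, the neuronal actin-related subunit, had 0, 2, 0 and 4 counts, where 3 counts are the limit that a count of 0 allows. Dpf1 had 7, 7, 2 and 13 counts and Dpf3 had 5, 3, 1 and 9, with Smarcd3 as given above. Their paralogues were expressed: Actl6a at 37.2 ± 7.72 TPM and Dpf2, the canonical BAF subunit, at 26.5 ± 3.24, so Dpf2 made up 98.6% ± 1.0 of the Dpf TPM. The Actl6a level is less certain, as an antisense gene shares 11.6% of its exon bases. Smarce1, an HMG-box core subunit, stood at 15.99 ± 3.64, and Actb, which also supplies a subunit of the complex but chiefly the cytoskeleton, at 3248 ± 581.

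Genes of the other PBAF subunits were all above 1 TPM in every library. Pbrm1, the polybromo subunit, was at 31.5 ± 3.84 TPM, Brd7 at 31.6 ± 5.47 and Phf10 at 13.3 ± 3.06, beside Arid2 at 17.2. The ncBAF subunit gene Brd9 was at 43.3 ± 5.62, above Brd7 in 4 of 4 libraries (1.38-fold, or 2.75-fold by principal transcripts). Bicra, the scaffold of ncBAF, was at 81.9 ± 23.5 and exceeded its paralogue Bicral (20.4 ± 0.87) 3.91-fold, or 4.99-fold by principal transcripts. An antisense gene shares 11.3% of the Bicral exon bases, so that level is less certain. Bicra had its highest value in library 3 (117 TPM, 64.9 to 73.9 in the others), as Smarca4 did. Of the 17 further BAF, PBAF and ncBAF genes tested, 5 were highest in library 3 in normalised CPM (27.8% of all genes tested).

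The BCL7 genes were present as Bcl7b at 50.2 ± 5.59 TPM, Bcl7a at 32.1 ± 9.57 and Bcl7c at 4.79 ± 0.47. Bcl7a, which is mutated in B cell lymphoma, gave more counts than Bcl7b in every library (1448 to 2536 against 672 to 800), and their order in TPM rests on gene length: by coding length Bcl7a made up 65.5% of the family, by joined exons 36.3%. Ss18 (14.2 ± 2.58) exceeded Ss18l1 (5.36 ± 0.65) 2.63-fold, or 7.98-fold by principal transcripts.

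Bcl11a and Bcl11b encode zinc finger proteins that associate with BAF, the former needed for B cell development and the latter for T cell development. Bcl11a was at 32.1, 33.6, 38.3 and 33.7 TPM, nearly level over the libraries. Bcl11b was at 8.96, 2.47, 2.97 and 7.96 TPM, high in libraries 1 and 4 and low in libraries 2 and 3. On average Bcl11a exceeded Bcl11b 7.19-fold, or 15.8-fold by principal transcripts. Bcl11b, which is also on the T cell marker list, was the BAF-associated gene with an unadjusted p under 0.05 in edgeR, and its adjusted p was 0.524. Libraries 1 and 4 were also those with more T cell transcripts, Trac at 203 and 172 TPM against 89.1 and 76.3 in libraries 2 and 3; their part in the Bcl11b level was not tested.

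**Figure D5:**
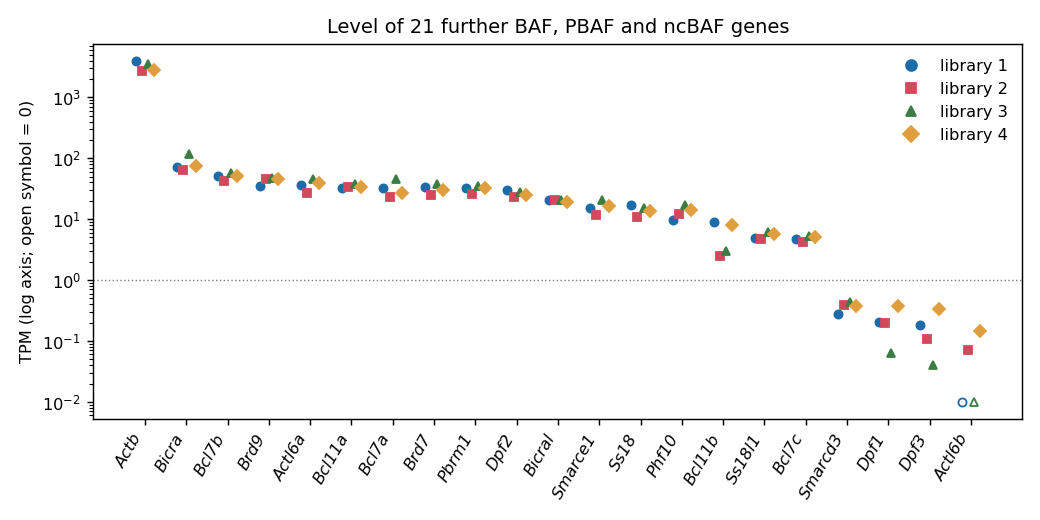
Level of the 21 further BAF, PBAF and ncBAF genes by library, as TPM on a log axis, open symbols marking a count of 0 drawn at the lower edge and the dotted line marking 1 TPM. Smarcd3, Dpf1, Dpf3 and Actl6b lie below 1 TPM in all 4 libraries, and Bcl11b is split between libraries 1 and 4 and libraries 2 and 3.

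Catalytic subunits of other remodeller families were set beside Smarca4 and Smarca2. Of 16 such genes 13 exceeded 1 TPM in all libraries, and 14 entered the edgeR test of variation. None of the 14 had an adjusted p under 0.05 (0.00835% of all genes) or an unadjusted p under 0.05 (4.97% of all genes). Chd4, the ATPase of the NuRD complex, was the highest at 170 ± 28.3 TPM, below Smarca4 in 4 of 4 libraries (0.44 ± 0.06 on the log2 scale, or 0.21 by principal transcripts). Ep400 stood at 49.98 ± 11.4, Chd3 at 42.8 ± 4.496, Hells, a helicase of dividing lymphocytes, at 39.6 ± 5.97, and the ISWI ATPase Smarca5 at 21.4 ± 4.81. Smarca5 exceeded Smarca2 2.03-fold by joined exons and 1.07-fold by principal transcripts. Smarca1 (0, 1, 0 and 2 counts), the second ISWI ATPase, and Chd5 (8 to 23 counts) were near 0. Srcap, at 1.29 ± 0.25 TPM, shares 65.0% of its exon bases with other annotated genes, so its level is uncertain.

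The genes closest in level and pattern were sought among 10747 protein-coding genes tested, by the root mean square difference in log2(TPM + 1) over the 4 libraries. For Smarca4 they were Gadd45b (0.068), Rbm38 (0.072) and Eif3c (0.078), and for Arid1a they were Sema7a (0.031), Tomm34 (0.063) and Otud5 (0.072). The likeness rests on 4 libraries of 1 group.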

How the data were processed

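Poly(A)-selected RNA of sorted B220+ YFP+ splenic cells was sequenced as single reads of 50 nt. The mm10 build, STAR 2.5.2b, featureCounts 1.6.0 and FastQC are named in the submitters' processing notes. Not given in the sources used here are how multi-mapping reads were handled, whether strand was used, and which annotation release. Deposited by the authors were raw whole-number counts for each gene, in a table for each library, of 13777954 to 14629025 counts. Libraries are numbered 1 to 4 in the order of the samples.

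CPM and TPM were computed from the counts, with the union of exons in GENCODE M21 (GRCm38) as length. Of 37646 gene identifiers, 37536 were found there once versions were dropped and 110 were not. Other lengths were the longest transcript, the APPRIS principal transcript and the longest coding sequence. Paralogue ratios were tested with an exact permutation of signs (two-sided). The variation test used edgeR 4.0.16 under R 4.3.3 (TMM after filterByExpr, glmQLFit with an intercept alone and legacy = FALSE, then the quasi-dispersion divided by its trend referred to the upper tail of F, Benjamini-Hochberg over all genes at 0.05), and DESeq2 1.42.0 dispersion outliers and the robust edgeR fit were alternatives. The test was tried on simulated counts. Genes named were the members, the listed BAF and remodeller genes, cell type markers, and the 3 nearest genes of Smarca4 and Arid1a. Gene positions are those of GENCODE. Promoters and motifs were read from RefSeq (GRCm38.p6). Members and lists were chosen with earlier results of these data known. Python 3.11.15 was used for the rest.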

Additional observations from a re-analysis of the deposited data

Results flagged for a closer look

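A library that stood apart was sought in 47 sets of 4 values (normalised CPM of the members, of the other BAF genes and of the other remodellers that were tested, and the 6 paralogue ratios), and 3 had a gap to the nearest library above Dixon's 95% critical share of the whole range. Chance flags about 1 in 20 such sets. Smarca4 was high in library 3, with a gap of 0.882 of its range, and Bicra, the ncBAF scaffold gene, was high in the same library, with a gap of 0.932. Smarcc1 was low in library 2, with a gap of 0.922. Without library 3 the mean Smarca4 level was 209 TPM, and without library 2 the mean Smarcc1 level was 38.6 TPM.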

How the results depend on the processing

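All 6 paralogue differences kept their direction under the 9 alternatives tried for each, and none could reach 0.05 with 4 libraries. Only the other gene lengths and the scale without gene length could have changed a direction that all 4 libraries shared. Leaving out 1 library gave 20.0- to 23.3-fold for Smarca4 over Smarca2 and 3.65- to 4.09-fold for Smarcd2 over Smarcd1. The median over members in a library, on average 36.6 TPM, was 79.0 without mitochondrial and immunoglobulin genes in the total, 55.6 by coding length and 63.6 by principal transcripts, the last 2 chosen after seeing the data. The count of all genes called for variation, 1 in the fit reported, was 262 without a filter on low counts, 63 with the robust fit, 159 with DESeq2 outliers, 0 without immunoglobulin, T cell receptor and mitochondrial genes, and 0 to 19 with 1 library left out (0 without library 2, 19 without library 3, 3 without library 4); the cause was not tested. No member was called in any of these. Coding length was taken from GENCODE, and RefSeq protein lengths were not run. No paired analysis was possible because there was 1 group.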
